A study of Mus musculus with 38 samples.

Results

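The genes described here encode the major histocompatibility complex (MHC) class II machinery of the mouse and its regulator. They are Cd74, H2-Aa, H2-Ab1, H2-Eb1, H2-DMa, H2-DMb1 and Ciita. They were chosen by name: every non-control probe whose gene name on the arrays is one of these symbols or an older synonym, which for Ciita is C2ta. This gave 7 of the 28786 genes measured and 11 of the 41174 probes. H2-Ab1 had 4 probes, H2-Aa had 2 and the others had 1 each.

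Class II molecules are pairs of an alpha and a beta chain that hold peptides from endocytosed protein on the cell surface, where CD4+ T cells read them. H2-Aa and H2-Ab1 encode the chains of H2-A, and H2-Eb1 encodes the beta chain of H2-E. Cd74, the invariant chain, guards the peptide groove and guides new class II molecules to endosomes, where the H2-DM molecule, made from H2-DMa and H2-DMb1, exchanges its last fragment for other peptides. Ciita is the transactivator of all of these genes. It is expressed constitutively in dendritic cells and B cells, and interferon-gamma induces it in many other cells, epithelial and tumor cells included, through the kinases Jak1 and Jak2 and the factor Irf1. Ciita does not bind DNA itself. It docks on a complex of RFX, CREB and NF-Y proteins assembled over short X and Y boxes just before the start of each target gene.

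The promoter letters are shown because CIITA is known to act through short boxes upstream of these genes. RefSeq promoters on GRCm38.p6 were sought for the members other than Cd74, which was not looked up, and were matched for 4 of these. Of the 4, 3 held at least 1 of the 2 motifs searched on both strands in the 150 bases before the start. The motifs were the X box core AACNNATG and the Y box core GATTGG, which do not overlap each other, and their matches are in capitals.
H2-Aa, chr17:34287824-34287973, minus strand: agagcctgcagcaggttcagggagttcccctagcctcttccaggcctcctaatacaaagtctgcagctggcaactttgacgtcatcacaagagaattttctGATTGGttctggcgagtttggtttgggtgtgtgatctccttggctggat
H2-Eb1, chr17:34305717-34305866, plus strand: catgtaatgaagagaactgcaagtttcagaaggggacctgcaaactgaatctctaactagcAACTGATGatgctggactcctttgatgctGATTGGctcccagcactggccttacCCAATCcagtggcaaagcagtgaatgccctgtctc
H2-DMb1, chr17:34153041-34153190, plus strand: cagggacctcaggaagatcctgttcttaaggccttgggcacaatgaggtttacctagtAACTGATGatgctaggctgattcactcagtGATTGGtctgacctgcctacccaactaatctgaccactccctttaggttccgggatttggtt
H2-Eb1 and H2-DMb1 held the X core, starting at -89 and -92, and a Y core at -60 and -62. H2-Eb1 held a second Y core on the opposite strand at -35. H2-Aa held the Y core at -49. Of all 32851 promoters, 4.43% held the X core in this window, 10.9% the Y core and 0.426% both. The letters of neither motif were in the window of H2-DMa. A match is a description of letters, and no binding was measured here.

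The arrays came from a transplant model of breast cancer. Hyperplasias of MMTV-PyMT;actin-GFP mice, in which a mammary tumor virus promoter drives the polyoma middle T oncogene and an actin promoter drives green fluorescent protein, were placed in the mammary fat pads of wild-type FVB/n hosts. In both experiments GFP-positive cells were sorted from digested tissue before RNA was taken. In the chemotherapy experiment, 6 untreated tumors (labeled Control) were profiled beside 6 residual tumors (labeled Regressed tumor), taken 10 days after 1 dose of docetaxel, doxorubicin and cyclophosphamide, and 4 relapsed tumors (labeled Resistant tumor), taken 10 days after the last of 4 doses. In the progression experiment, the cells came from 5 adenomas (outgrowths of 5 weeks), 6 carcinomas (18 weeks), 6 samples of disseminated cells from the lungs of mice with 18-week outgrowths, pooled over several mice, and 5 samples of lung metastases, taken 8 to 10 weeks after the primary tumor was removed. The hosts kept their own immune system. The actin promoter is active in most cell types, so the sort gates on donor origin and not on epithelium, and leukocytes that came with a transplanted fragment, or that hold tumor material, could pass it.

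Every value below is the log2 ratio of a sample to a common mouse reference RNA hybridized to the same array, so 0 is the level of the reference. A gene was called when the limma test gave an adjusted p below 0.05 and a difference of at least 2-fold. The labels do not tie replicates to separate animals in all groups, so p-values measure the spread between these samples. Array number is the limit on precision: 16 arrays on 5 slides for chemotherapy and 22 arrays on 6 slides for progression. Between 47.6% and 78.3% of probes were above background on an array. The probe used for each member was above background on every array, other than H2-Eb1, which was above it on 5 of 6 untreated and 3 of 4 relapsed arrays, and no member probe was saturated.

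Carcinoma replicate 6 stood apart before any comparison was made. Its median correlation with the other carcinomas was 0.76, and its mean over 10 leukocyte markers was 3.15, against -1.61 to -0.72 in the other 5 carcinomas. Ptprc, the pan-leukocyte surface phosphatase CD45, was 1.27 in it and -5.10 to -3.28 in the others. It also had the highest carcinoma value of all 7 members. Calls of members and counts of listed genes that change without it are therefore given both ways.

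In the chemotherapy experiment the class II genes were lowest in relapsed tumors. Cd74 was 1.96, 1.86, 0.73, -0.10, -1.40 and 0.98 in the 6 untreated tumors. It was 2.74, 1.16, 1.99, 0.78, 1.49 and 0.43 in the 6 residual tumors and -1.72, -1.56, -0.80 and -1.37 in the 4 relapsed tumors. Every relapsed tumor was below every residual tumor, while 1 untreated tumor lay among the relapsed ones. H2-DMa, one chain of the peptide exchanger, was 0.72, 0.57, 0.07, -0.01, -0.64 and 0.66 in untreated tumors, 1.77, 0.50, 1.78, 0.66, 1.10 and 0.40 in residual tumors, and -0.59, -0.86, -0.43 and -0.63 in relapsed tumors. Again residual and relapsed tumors did not overlap, and 1 untreated tumor reached the relapsed range.

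The H2-A chains had the same order of group means at the probes used. H2-Aa averaged 4.12 ± 0.70 (SD, n = 6) in residual, 3.88 ± 1.42 (n = 6) in untreated and 1.50 ± 0.58 (n = 4) in relapsed tumors. H2-Ab1 averaged 4.67 ± 0.59, 4.31 ± 1.01 and 3.03 ± 0.75 in the same groups. H2-Eb1, the beta chain of H2-E, stayed close to the reference, with means of 0.94 ± 0.46, 0.66 ± 0.48 and 0.09 ± 0.18. H2-DMb1, the partner of H2-DMa, averaged 3.78 ± 0.48 in residual, 3.12 ± 0.86 in untreated and 3.06 ± 0.36 in relapsed tumors. The untreated tumors were the most dispersed group for 5 of the 7 members, with H2-Aa running from 1.81 to 5.55.

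**Figure D1:**
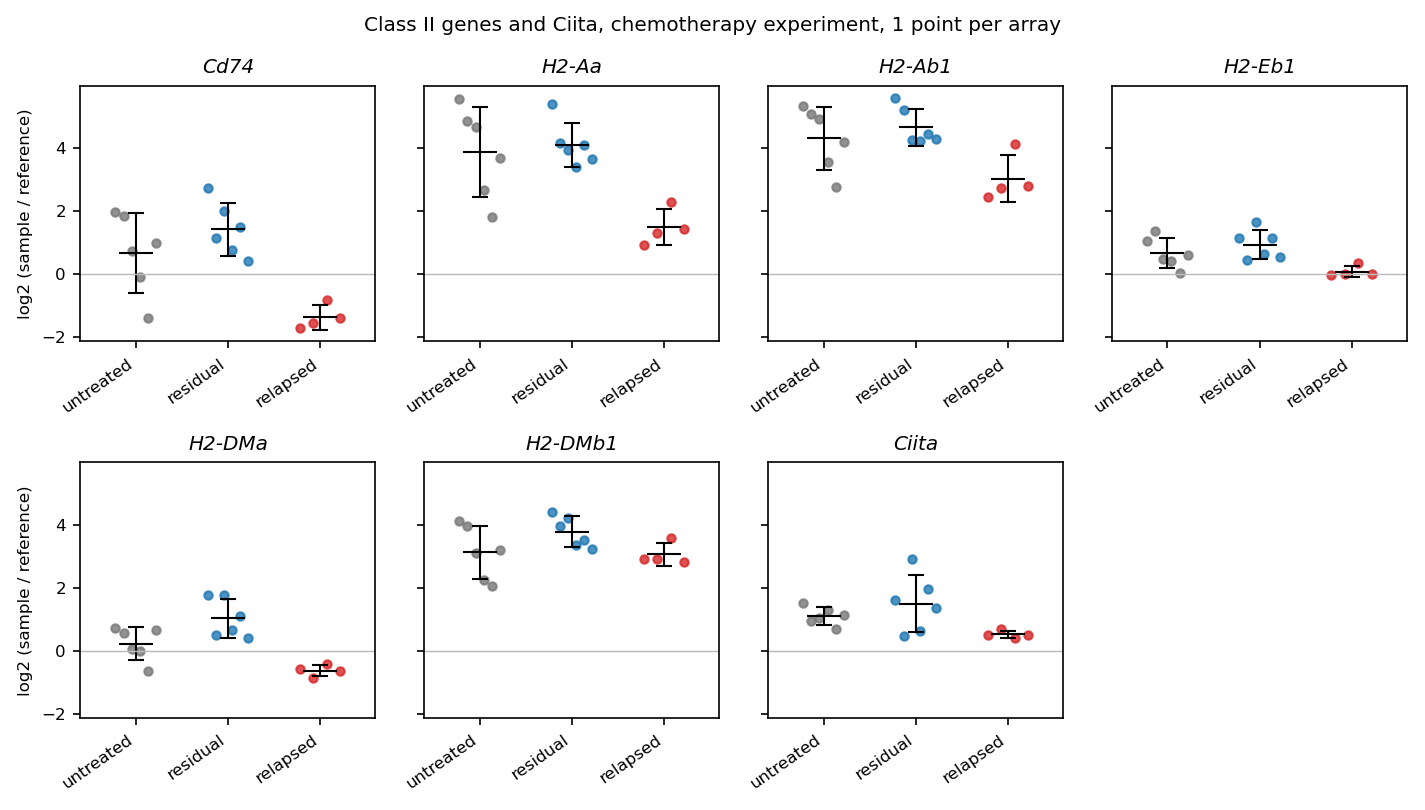
Log2 ratio of sample to reference for each of the 7 genes in the 3 chemotherapy groups, 1 point per array, with the mean and SD as a black bar. The 4 relapsed tumors lie below all 6 residual tumors for Cd74, H2-Aa, H2-Ab1, H2-Eb1 and H2-DMa, and overlap them for H2-DMb1 and Ciita.

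Ciita, the regulator, was 1.53, 0.95, 1.04, 1.30, 0.69 and 1.14 in untreated tumors. It was 1.63, 0.47, 2.93, 0.62, 1.95 and 1.35 in residual tumors and 0.49, 0.68, 0.41 and 0.50 in relapsed tumors. The relapsed values lay within 0.27 of each other and just below the lowest untreated tumor, whereas the residual tumors spread over 2.45 and reached into the relapsed range.

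Between relapsed and residual tumors, 1 of the 7 members was called, beside 0.212% of all genes. H2-DMa fell by 1.66 ± 0.30 (SE), or 3.17-fold, with an adjusted p of 0.025. All 7 members were lower, 6 of them at an unadjusted p under 0.05, and their median difference was -1.64 against 0.02 over all genes. For 5 members the groups did not overlap, beside 0.983% of all genes with relapsed below residual. The differences of Cd74 (-2.79 ± 0.56, adjusted p = 0.0522) and H2-Aa (-2.62 ± 0.60, adjusted p = 0.108) were larger than that of H2-DMa and did not pass. H2-Ab1 differed by -1.64 (adjusted p = 0.289), H2-Eb1 by -0.86 (0.293), H2-DMb1 by -0.72 (0.692) and Ciita by -0.97 (0.462). The H2-DMa call was lost without residual replicate 1 (adjusted p = 0.052) and without any 1 of the 4 relapsed tumors (0.0629 to 0.106), and the Cd74 difference passed without residual replicate 6 (0.0484). With slide as a fixed block H2-DMa differed by -1.28 (adjusted p = 0.639). Slide 4, which held 2 relapsed and 1 residual tumor, gave -1.12 for H2-DMa and -2.06 for Cd74.

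No member was called between residual and untreated tumors, beside 0.101% of all genes, and none by the ordinary test without moderated variances. All 7 members were higher in residual tumors at the probe used, by 0.24 (H2-Aa) to 0.81 (H2-DMa). In a fit over all probes the other H2-Aa probe gave -0.03, and the other H2-Ab1 probes gave 0.24 to 0.48. Only H2-DMa had an unadjusted p under 0.05 (0.00893, adjusted 0.345), and the groups overlapped for every member. On slide 2, with 2 residual tumors and 1 untreated tumor, the differences ran from -0.76 for H2-Aa to 0.41 for H2-DMa. With slide as a fixed block, 4 of the 7 changed sign.

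No member was called between relapsed and untreated tumors either, beside 0.00347% of all genes, and none by the ordinary test. All 7 were lower in relapsed tumors and 5 had an unadjusted p under 0.05. H2-Aa differed by -2.38 ± 0.60 (adjusted p = 0.28) and Cd74 by -2.04 ± 0.56 (0.32). Ciita, at -0.59 ± 0.35 (adjusted p = 0.768), was the member whose groups did not overlap, beside 0.577% of all genes in that direction. On slide 5, with 2 relapsed tumors and 1 untreated tumor, Cd74 differed by -2.07 and Ciita by -0.69.

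Of 9 genes listed as inputs to Ciita, 1 fell from residual to relapsed tumors and 4 did not overlap, all lower. It was Irf1, an interferon-induced activator of the Ciita promoter, which fell by 1.63 (adjusted p = 0.00366), from 2.21 to 2.79 in residual tumors to 0.03 to 1.14 in relapsed tumors. The receptor chains Ifngr1 and Ifngr2 differed by -0.40 and -0.04, with adjusted p of 0.651 and 0.986. Between residual and untreated tumors none of the 9 was called. Irf1 was 0.90 higher in residual tumors (adjusted p = 0.123), without overlap of the groups. The study picked Irf1 out from these same arrays, so its values are not independent evidence of that direction.

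**Figure D2:**
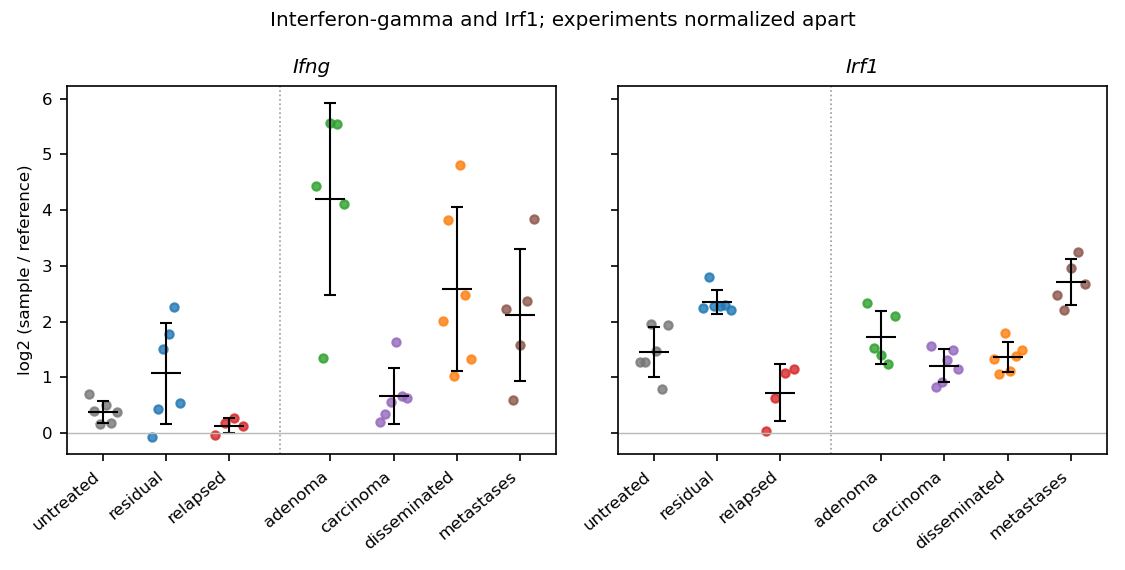
Log2 ratio of sample to reference for Ifng and Irf1 in all 7 groups, 1 point per array, with the mean and SD as a black bar; the dotted line parts the experiments, which were normalized apart. Residual tumors lie above untreated and relapsed tumors for Irf1, and adenomas other than replicate 2 lie above all carcinomas and metastases for Ifng.

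The rest of the class II machinery was not called in these tumors. From residual to relapsed tumors none of 5 other class II genes, 7 promoter factors, 7 processing enzymes, 3 turnover genes and 3 costimulation genes was called. The promoter factors, which include Rfx5, Rfxap and Rfxank of the RFX complex, had a median difference of -0.01, against 0.02 over all genes. H2-Ea, the alpha chain that pairs with H2-Eb1, was above background on no untreated or relapsed array and on 2 residual arrays. In the progression experiment it was above background on 4 of 5 adenoma arrays (mean 1.56 ± 0.94), 1 of 6 carcinoma arrays (0.55 ± 0.70), 5 of 6 disseminated arrays (1.73 ± 0.95) and 3 of 5 metastases arrays (0.99 ± 0.85). FVB mice carry the q haplotype of the complex, which is known to lack H2-E on the cell surface, and these values concern RNA at 1 probe.

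Leukocyte genes are given beside these values because dendritic cells, B cells and macrophages are known to express class II genes more than epithelium does. None of 10 leukocyte, 12 macrophage, 11 dendritic cell, 10 B cell or 10 T and NK cell markers was called between relapsed and residual tumors, but most were lower: 9 of the 10 leukocyte markers, with a median of -0.37, 11 of the 12 macrophage markers (-0.27), 7 of the 11 dendritic cell markers (-0.22) and 8 of the 10 T and NK cell markers (-0.19). The groups did not overlap for 3 T and NK cell markers, beside the 0.983% of all genes given above. These were the T cell receptor genes Trac, at -0.54 (adjusted p = 0.0481) and below 2-fold, Cd3g, at -0.69 (0.0527), and Cd3d, at -0.95 (0.08). The groups did not overlap for the dendritic cell marker Ccr7 either (-0.81, 0.554). The T and NK cell mean per array ran from -0.4179 to 0.0207 in residual and from -0.5407 to -0.4188 in relapsed tumors, so the groups nearly touched. Of its 10 genes, 5 to 9 were above background on a residual array and 3 to 8 on a relapsed array. The leukocyte mean per array ran from -1.69 to -0.67 in residual, -2.04 to -1.33 in relapsed and -1.72 to 0.02 in untreated tumors. The macrophage mean ran from 0.10 to 2.05, from -0.15 to 1.24 and from 0.29 to 2.55. The dendritic cell marker Flt3 lay between -0.09 and 0.40, and the B cell marker Cd79a between -0.34 and 0.35, on all 16 arrays. Ptprc ranged from -4.59 to -1.71, above background on every array. The cells had passed the GFP sort described above. The part of leukocytes in the class II differences was not tested, and in such samples fewer cells of a type and less RNA per cell cannot be told apart. The epithelial markers Epcam and Krt8 were between 2.91 and 4.69 on all 16 arrays, as the tumor label says.

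In the progression experiment Cd74, H2-Aa, H2-Eb1 and H2-DMa had higher means in adenomas, disseminated cells and metastases than in carcinomas, and metastases were split. Cd74 was 3.04, 2.08, 2.07, 2.09 and 3.11 in adenomas and 0.59, -0.30, -0.21, -0.64, -0.58 and 3.37 in carcinomas. It was 6.08, 3.49, 2.32, 2.72, 3.18 and 4.72 in disseminated cells and 4.12, -0.02, 4.38, 4.47 and 1.61 in metastases. Every disseminated sample was above the 5 lower carcinomas. Metastases 2 lay among these carcinomas, and metastases 5 between them and the other 3.

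H2-Aa was 5.51, 6.94, 6.29, 5.98 and 5.42 in adenomas, and 3.46, 3.11, 3.25, 2.65, 3.07 and 5.93 in carcinomas. It was 6.84, 5.54, 5.33, 5.59, 5.43 and 6.30 in disseminated cells, and 5.98, 4.43, 6.51, 6.48 and 4.85 in metastases. The 5 lower carcinomas were below all 16 samples of the other groups. H2-Eb1 was 4.12, 3.86, 5.47, 4.48 and 4.66 in adenomas, and 1.42, 1.12, 0.99, 0.77, 1.35 and 4.90 in carcinomas. It averaged 4.52 ± 0.69 (n = 6) in disseminated cells and 3.83 ± 1.66 (n = 5) in metastases, where replicate 2, at 1.40, was again in the carcinoma range. H2-DMa averaged 3.36 ± 0.49, 1.36 ± 1.36, 3.42 ± 0.79 and 2.96 ± 1.47 in adenomas, carcinomas, disseminated cells and metastases. H2-DMb1 averaged 5.16 ± 0.37, 4.52 ± 0.85, 4.99 ± 0.67 and 5.50 ± 0.89, and disseminated replicates 3 and 5, at 4.11 and 4.45, lay within the range of the 5 lower carcinomas (3.79 to 4.62).

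H2-Ab1, at the probe used, did not have this order. It was 5.16, 4.72, 4.91, 4.93 and 4.61 in adenomas, and 4.78, 4.22, 4.68, 4.30, 4.17 and 7.47 in carcinomas. It was 7.75, 4.74, 4.62, 4.62, 5.41 and 7.35 in disseminated cells, and 7.55, 5.46, 7.80, 7.71 and 5.73 in metastases. Adenomas and carcinomas overlapped, and disseminated replicates 2, 3 and 4 lay below carcinoma 1.

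**Figure D3:**
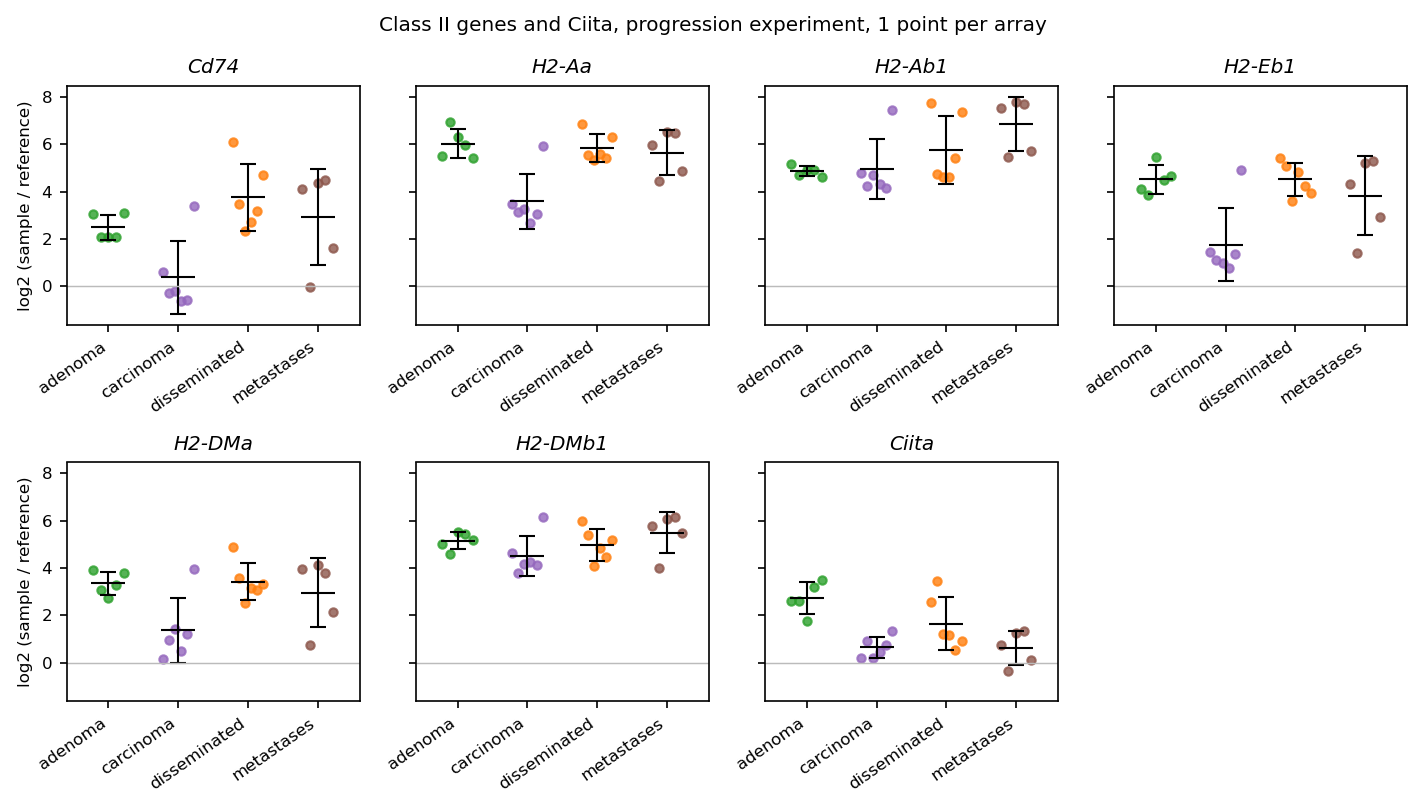
Log2 ratio of sample to reference for each of the 7 genes in the 4 progression groups, 1 point per array, with the mean and SD as a black bar. One carcinoma, replicate 6, lies above the other 5 in every panel, by 2.78 for Cd74, and for Ciita the adenomas lie above all carcinomas and metastases.

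Ciita had another order. It was 2.61, 2.60, 1.74, 3.21 and 3.48 in adenomas, and 0.22, 0.90, 0.21, 0.47, 0.73 and 1.35 in carcinomas. It was 2.55, 3.45, 1.22, 1.15, 0.52 and 0.93 in disseminated cells, and 0.75, -0.34, 1.25, 1.35 and 0.09 in metastases. All 5 adenomas were above all carcinomas and all metastases, and the disseminated cells bridged them, with replicates 1 and 2 in the adenoma range and the other 4 in the carcinoma range.

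From adenomas to carcinomas 4 of the 7 members fell, beside 3.31% of all genes called and 2.14% called lower. H2-Eb1 fell by 2.76 ± 0.71 (adjusted p = 0.0169), H2-Aa by 2.45 ± 0.51 (0.00493), Ciita by 2.08 ± 0.46 (0.00699), with no overlap beside 4.55% of all genes, and H2-DMa by 2.00 ± 0.64 (0.0479). Cd74 differed by -2.11 ± 0.85 (adjusted p = 0.113), H2-DMb1 by -0.65 ± 0.42 (0.342) and H2-Ab1 by 0.07 ± 0.66 (0.959). Without carcinoma 6 Cd74 passed as well, at -2.71 (adjusted p = 0.0296), and H2-Eb1 stood at -3.39. The H2-DMa call was lost on leaving out any 1 of the other 10 samples (0.0667 to 0.105) and that of H2-Eb1 without adenoma 3 (0.0518). These groups were hybridized on different slides and scanned on different days, so group and slide cannot be told apart. Without normalization between arrays none of the 4 passed: H2-Aa differed by -1.27 (0.104), H2-Eb1 by -1.88 (0.14), H2-DMa by -1.81 (0.117) and Ciita by -1.68 (0.0918).

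The 4 probes of H2-Ab1 did not move alike. The probe with the strongest signal, at 32346939 to 32346998 of chromosome 17 on build mm7, gave the 0.07 above. In a fit over all probes the others gave -2.02 (adjusted p = 0.0744), -2.14 (0.0459) and -1.41 (0.206) between carcinomas and adenomas. Of these, 2 lie in the same gene's neighborhood, at 32345268 to 32345327 and 32342603 to 32342662, and the files give no position for the last. Both H2-Aa probes fell, by 2.45 (0.00478) and 2.44 (0.0219). Whether the H2-Ab1 probes lie in exons or an untranslated region is not given, since no annotation of that build was used here.

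From carcinomas to disseminated cells 4 of the 7 members rose, beside 11.6% of all genes called and 5.47% called higher. Cd74 rose by 3.38 ± 0.81, or 10.4-fold (adjusted p = 0.00486), H2-Eb1 by 2.76 ± 0.68 (0.0054), H2-Aa by 2.26 ± 0.49 (0.00233) and H2-DMa by 2.06 ± 0.61 (0.017). These 4 calls held with any 1 of the 12 samples left out. Without carcinoma 6 they stood at 3.98 for Cd74, 3.39 for H2-Eb1, 2.73 for H2-Aa and 2.58 for H2-DMa. Ciita differed by 0.99 ± 0.44 (adjusted p = 0.0991), H2-DMb1 by 0.47 ± 0.40 (0.417) and H2-Ab1 by 0.81 ± 0.63 (0.371). The other 3 probes of H2-Ab1 rose by 2.93 (0.00457), 2.38 (0.0114) and 1.97 (0.037). These groups too were on different slides and scan days and cannot be told apart from them.

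From carcinomas to metastases 4 of the 7 members rose, beside 10.1% of all genes called and 4.74% called higher. Cd74 rose by 2.54 ± 0.85 (adjusted p = 0.0379), H2-Eb1 by 2.07 ± 0.71 (0.0415), H2-Aa by 2.07 ± 0.51 (0.00721) and H2-Ab1 by 1.91 ± 0.66 (0.0443). Ciita did not follow, at -0.03 ± 0.46 (0.98). Without carcinoma 6, 6 members passed, beside 3875 of all 28786 genes called, against 2902 with it. Without metastases 2, 6 members passed as well, beside 2828 of all genes. Without any 1 of carcinomas 1 to 5 or of metastases 1, 3 and 4, H2-Aa alone passed. Carcinomas and metastases shared slides, and the sign of the Cd74 difference was not the same on all of them: 4.10 on slide 7, 3.46 on slide 6 and -1.42 on slide 8, which held carcinoma 6 and metastases 2. With slide as a fixed block H2-Eb1 no longer passed (2.09, adjusted p = 0.057).

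From adenomas to metastases 1 member rose and 1 fell, beside 14.6% of all genes. Ciita fell by 2.11 ± 0.48 (adjusted p = 0.00274), with no overlap, beside 11.7% of all genes in that direction. H2-Ab1 rose by 1.99 ± 0.69 (0.0376) at the probe used, with no overlap beside 9.78% of all genes, but its other 3 probes gave 1.37, -0.05 and 0.29 and the mean of its probes 0.90 (0.367). That call was also lost without any 1 of 7 samples, metastases 1, 3 or 4 or adenomas 2 to 5 (0.0606 to 0.0923). The Ciita call held with any 1 sample left out but not without normalization between arrays (-1.60, 0.0659). Cd74, H2-Aa, H2-Eb1, H2-DMa and H2-DMb1 differed by -0.69 to 0.43, with adjusted p of 0.526 to 0.761. Adenomas and metastases shared no slide or scan day, so group and slide cannot be told apart here either.

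No member was called between disseminated cells and adenomas, beside 10.5% of all genes, or between metastases and disseminated cells, beside 7.11%, by limma or by the ordinary test. Ciita had the one unadjusted p under 0.05 in each: -1.09 ± 0.46 (unadjusted 0.0272, adjusted 0.0968) from adenomas to disseminated cells and -1.02 ± 0.46 (0.0374, adjusted 0.155) from disseminated cells to metastases. Without disseminated replicate 2 the former passed (adjusted p = 0.0152). On the 3 slides shared by adenomas and disseminated cells Ciita differed by -1.17, -2.17 and 0.56. H2-Eb1 averaged 4.52 in both groups, and its difference had an SE of 0.71. Metastases and disseminated cells shared no slide or scan day.

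**Figure D4:**
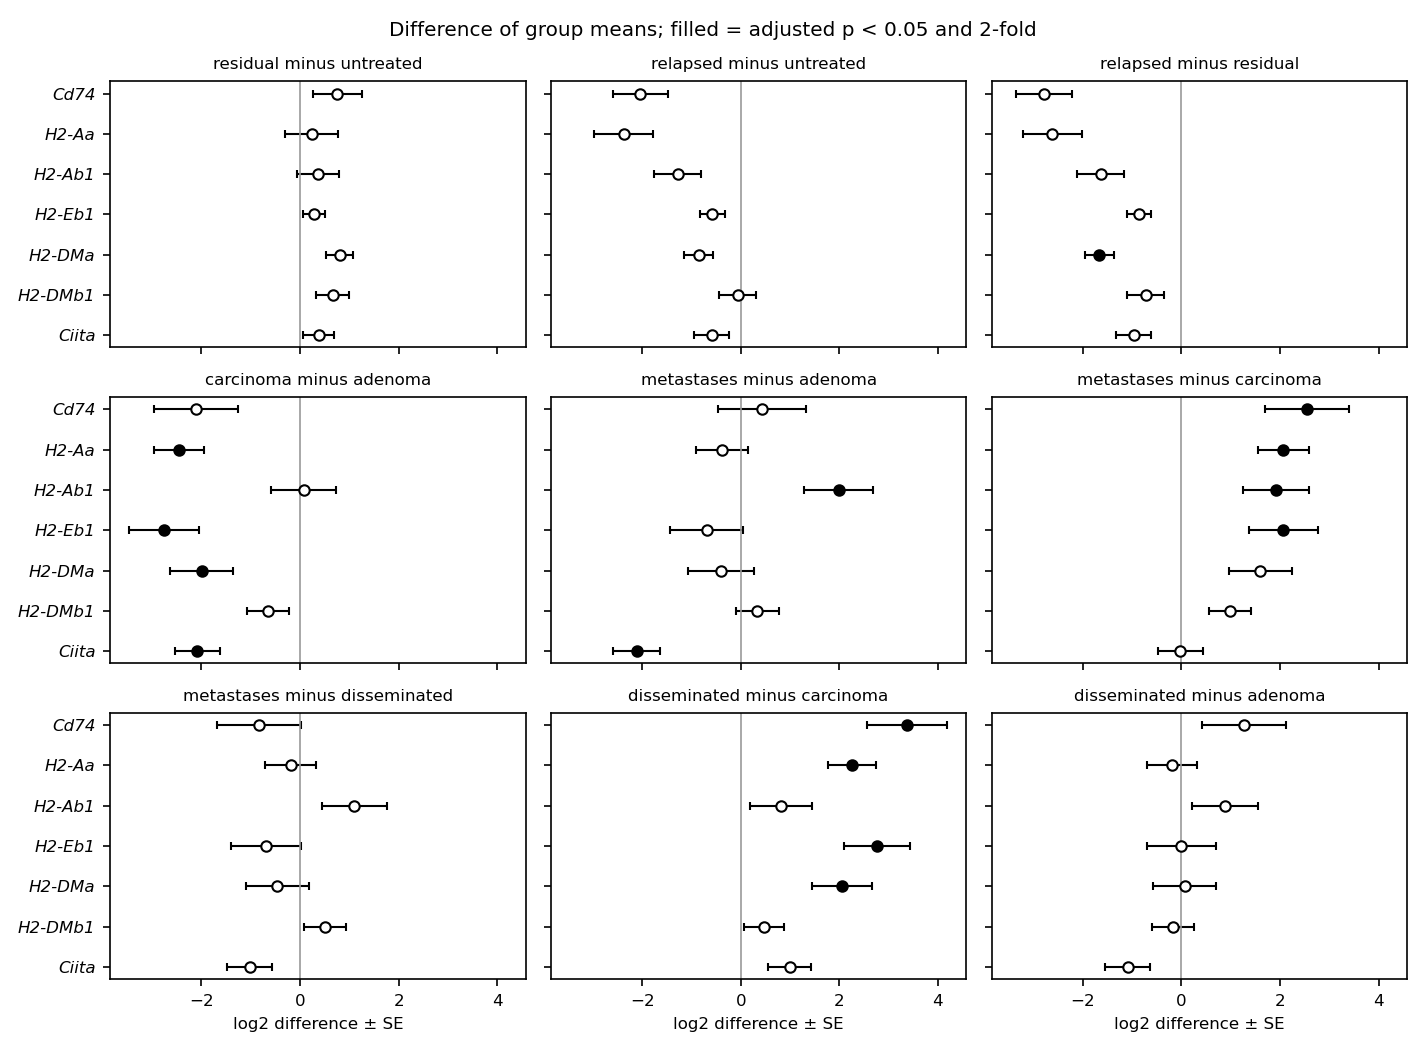
Difference of group means with its SE for each of the 7 genes in the 9 comparisons, on the log2 scale; filled points passed an adjusted p of 0.05 and 2-fold. Members lie left of 0 from residual to relapsed tumors, and from adenomas to carcinomas other than H2-Ab1, and right of 0 from carcinomas to disseminated cells; comparisons of an experiment share groups and are not independent.

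Of the 9 inputs to Ciita, 1 fell with it from adenomas to carcinomas. Ifng, the interferon itself, fell by 3.54 (adjusted p = 0.0052), from 4.44, 1.35, 5.57, 5.54 and 4.12 to 0.20, 0.34, 0.55, 1.62, 0.67 and 0.63. Its probe was above background on 4 of the 6 carcinoma arrays and on all 5 adenoma arrays, so the size of this difference is uncertain. Irf1 differed by -0.51 (0.127), Ifngr1 by -0.60 (0.442) and Ifngr2 by 0.13 (0.717). Adenoma 2, with the lowest Ifng of its group, had a Ciita value of 2.60, within the range of the others. The part of Ifng and the other inputs in the Ciita values was not tested. From carcinomas to metastases 3 inputs rose. Jak2 rose by 1.60 (0.0133), Irf1 by 1.50 (0.000178) and Ifngr2 by 1.08 (0.00127), in the comparison where Ciita stood at -0.03. From carcinomas to disseminated cells 3 inputs rose, among them Irf8 by 2.81 (0.00314), an interferon-responsive factor of myeloid cells, and Jak2 by 2.26 (0.000797). Ifngr1 rose by 1.99 (0.00325), Ifngr2 was 0.91 higher (0.00201), below 2-fold, and Irf1 differed by 0.15 (0.627).

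Of 7 promoter factors, Creb1 rose by 1.04 (0.0454) from adenomas to carcinomas, none was called from carcinomas to disseminated cells, and from carcinomas to metastases Nfya rose by 1.26 (0.0165) and Rfxank fell by 1.39 (0.00021). Of 7 processing enzymes, 4 rose from carcinomas to disseminated cells. Ctss, cathepsin S, which trims Cd74 in antigen-presenting cells, rose by 6.16 (0.00617), and Lgmn, an endosomal asparagine endopeptidase, by 2.49 (0.04). Ctss also rose from carcinomas to metastases, by 5.03 (0.0304), the one enzyme called there. From adenomas to carcinomas Sppl2a, the protease that clears the last Cd74 fragment from the membrane, fell by 1.34 (0.0466). Costimulation genes, which give T cells the second signal, rose in 3 of 3 from carcinomas to disseminated cells, by 3.09 for Cd86 (0.0192) and 2.76 for Cd40 (0.0245). Cd86 alone rose from carcinomas to metastases, by 2.83 (0.0441). Of 5 other class II genes, H2-DMb2 rose by 1.25 (0.0474) and H2-Oa by 1.19 (0.0229) from carcinomas to disseminated cells, and H2-Oa fell by 1.36 (0.0262) from disseminated cells to metastases. H2-Oa is a chain of H2-DO, which restrains H2-DM. Of the 3 turnover genes, Marchf1, the ligase that removes class II from the surface, rose by 3.90 (0.00105) and Il10 by 3.07 (0.0189) from carcinomas to disseminated cells, while Marchf8 fell (0.00372), just past 2-fold.

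Some of these calls turned on carcinoma 6. Without it Creb1 (0.70, adjusted p = 0.0526) and Sppl2a (-1.40, 0.0518) did not pass from adenomas to carcinomas, where Irf8 (-2.57, 0.0053) and H2-DMb2 (-1.64, 0.0132) then did. Marchf8 (-0.99, 0.00539) no longer reached 2-fold from carcinomas to disseminated cells, where Ifi30, a thiol reductase of the endosome, and H2-Ea (1.47, 0.0212) passed. From carcinomas to metastases, inputs called rose from 3 to 5, processing enzymes from 1 to 3, turnover genes from 0 to 2, costimulation genes from 1 to 2 and other class II genes from 0 to 1. All genes called there rose as well, from 2902 to 3875.

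The comparisons with adenomas in which few or no members were called also held calls in these lists. From adenomas to disseminated cells 6 of 7 processing enzymes rose, with Ctss at 6.59 (adjusted p = 0.00792) and Lgmn at 3.32 (0.0151), as did all 3 costimulation genes, with Cd86 at 3.64 (0.0135) and Cd40 at 2.86 (0.0323). Of the turnover genes 2 rose, Marchf1 by 4.50 (0.00114) and Il10 by 3.87 (0.00896), and of the inputs 3 rose, among them Jak2 by 1.55 (0.0172) and Ifngr1 by 1.40 (0.0418). From adenomas to metastases, where Ciita fell, Ifng fell by 2.09 (0.0494) and Jak1 by 1.09 (0.000336), and Ifngr2 rose by 1.21 (0.000351). Promoter factors called were 3, all higher, with Creb1 at 1.64 (0.00151) and Nfya at 1.46 (0.00653). Processing enzymes called were also 3, all higher, with Ctss at 5.46 (0.0201) and Ctsl at 1.86 (0.00224), and Marchf1 rose by 2.44 (0.0308) and Cd86 by 3.37 (0.0181). From disseminated cells to metastases Rfxap rose by 1.14 (0.009), Marchf8 by 1.02 (0.00872) and Irf1 by 1.35 (0.000612), and Jak1 fell by 1.63 (4.06e-05).

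Leukocyte markers moved with class II in some comparisons and not in others. From carcinomas to disseminated cells 10 of 10 leukocyte markers rose, with a median of 3.68. So did 6 of 12 macrophage, 7 of 8 alveolar macrophage and 4 of 11 dendritic cell markers. Of B cell markers 3 of 10 rose, as did 6 of 10 T and NK cell and 5 of 7 neutrophil markers. Of lung epithelium markers 5 of 9 rose and of endothelial markers 4 of 8, while 4 of 12 mammary epithelium markers fell. Without carcinoma 6 the macrophage count was 10 and the mammary count 5, and the leukocyte median 4.33. The leukocyte mean per array was 2.38 to 4.35 in disseminated cells, and Ptprc was 0.75 to 4.08. Disseminated cells also had the lowest epithelial signal against their label as tumor cells, with Epcam from -0.46 to 5.46. From carcinomas to metastases 3 leukocyte, 2 macrophage and 4 alveolar macrophage markers rose, and without carcinoma 6 these were 9, 6 and 5. Dendritic cell markers that rose there went from 1 to 4, lung epithelium markers from 3 to 4 and neutrophil markers from 0 to 1. Mammary epithelium markers that fell went from 0 to 1 and endothelial markers that fell from 1 to 0. There 1 endothelial marker rose, both with and without carcinoma 6. Leukocyte markers also rose where few or no members were called. From adenomas to disseminated cells 10 of 10 leukocyte, 9 of 12 macrophage and 8 of 8 alveolar macrophage markers rose with 0 members called. From adenomas to metastases 4 leukocyte, 8 macrophage and 6 alveolar macrophage markers rose, with 1 member called higher and 1 lower. Within metastases the leukocyte mean was 1.93, -1.09, 2.59, 3.54 and 0.20 in replicates 1 to 5, and replicates 2 and 5 also had the lowest values of all 7 members.

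From adenomas to carcinomas none of the 10 leukocyte, 12 macrophage, 11 dendritic cell or 10 B cell markers was called, with a leukocyte median of 0.02, or -0.81 without carcinoma 6. Of 10 T and NK cell markers 3 fell, and of 8 alveolar macrophage markers 2 rose. Mammary epithelium markers that rose went from 0 to 1 of 12 without carcinoma 6. The adenoma leukocyte mean lay between -0.68 and -0.10, above the -1.61 to -0.72 of the 5 lower carcinomas and far below the disseminated cells, and Ptprc in adenomas was -3.30 to -2.04. The macrophage mean was 0.38 to 0.94 in adenomas and 0.31 to 1.16 in those 5 carcinomas. The T and NK cell mean was 0.39 to 1.32 in adenomas and -0.29 to 0.43 in all 6 carcinomas. Cd74 in adenomas was 2.07 to 3.11. Each value is relative to the reference's own level of that gene, so levels of Cd74 and of markers cannot be compared with each other. The dendritic cell marker Itgax was 0.32 to 2.45 in adenomas and -0.61 to 3.79 in all 6 carcinomas. Without carcinoma 6 Itgax differed by -1.30 (adjusted p = 0.152), Ccr7 by -1.83 (0.104) and Irf4 by -1.38 (0.179). The 7 of 11 dendritic cell markers that were higher in carcinomas differed by 0.06 (Clec9a) to 0.54 (Clec10a). The part of these cells in the class II differences was not tested.

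**Figure D5:**
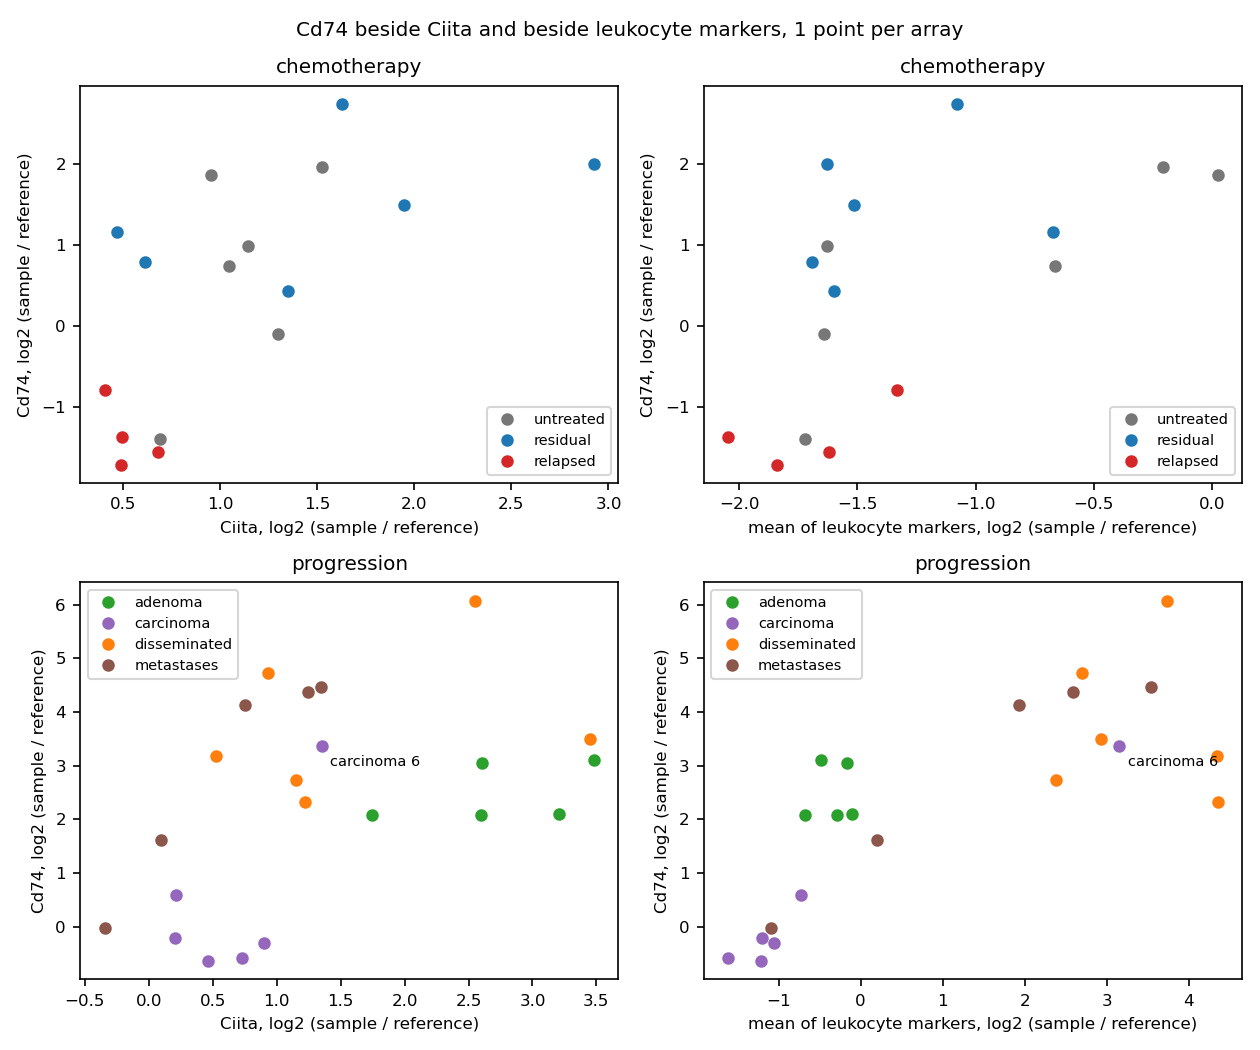
Cd74 against Ciita (left) and against the mean of 10 leukocyte markers (right), as log2 ratios of sample to reference, 1 point per array, for the chemotherapy arrays (top) and the progression arrays (bottom). Carcinoma 6 lies with the disseminated cells on the leukocyte axis, and the 5 adenomas lie to the right of most other samples on the Ciita axis and below a leukocyte mean of 0.

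The balance of Ciita and Cd74 differed along progression. Ciita minus Cd74, taken within each array, was -0.44 to 1.11 in adenomas and -2.02 to 1.32 in carcinomas, where -2.02 was carcinoma 6. It was -3.79 to -0.04 in disseminated cells and -3.37 to -0.32 in metastases. In the chemotherapy experiment it was -0.91 to 2.09 in untreated, -1.11 to 0.93 in residual and 1.21 to 2.24 in relapsed tumors. These differences compare an array with other arrays for one pair of probes, and were not tested. Across arrays Pearson's r of Ciita with Cd74 was 0.65 over 16 chemotherapy arrays and 0.46 over 22 progression arrays, a description of arrays that share a reference and fall into groups.

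With the mean of Cd74, H2-Aa, H2-Ab1 and H2-Eb1 as the pattern, Ciita had an r of 0.58 in the chemotherapy arrays and 0.45 in the progression arrays. The genes most like the pattern over the 16 chemotherapy arrays, of 11160 considered, were Cxcl10 (r = 0.89), Gbp5 (0.89), Irf8 (0.88), Atp8a2 (0.87) and Gpr171 (0.87). Gbp5 averaged 3.39 ± 0.35 in residual, 2.52 ± 0.62 in untreated and 1.28 ± 0.23 in relapsed tumors. Over the 22 progression arrays, of 13583 genes, they were Gpr171 (0.93), H2-DMb2 (0.90), Gpr183 (0.90), Zmynd15 (0.89) and Axl (0.89). Gpr171 was in both lists. It averaged -1.42 ± 0.41 in adenomas, -2.32 ± 1.47 in carcinomas, 0.48 ± 0.98 in disseminated cells and 0.19 ± 1.71 in metastases. Gpr171 thus set adenomas below disseminated cells, as Cd74 (2.48 against 3.75) and H2-Ab1 (4.86 against 5.75) did. H2-Aa was higher in adenomas (6.03 against 5.84), and H2-Eb1 averaged 4.52 in both groups.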

How the data were processed

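Gene expression was profiled on 38 Agilent arrays with 2 colors, each with a sample in Cy5 and Universal mouse reference in Cy3, and no dyes were swapped. The authors deposited intensity values per spot from Agilent Feature Extraction 10.7, not yet normalized, and a matrix of log2 ratios. Whether that matrix had been normalized between arrays is not settled; it served as an alternative and correlated with the values used at 0.969 to 0.999 per array, with column medians of 0.005 to 0.053.

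In R 4.3.3, intensities were corrected by normexp (offset 50), then loess within arrays and quantile normalization between arrays of an experiment. Spots marked as outliers were dropped, spots of a probe averaged, and a gene read from its probe with the highest mean signal. Names came from accessions for 22951 probes and from the array files for 18223. Each experiment was 1 limma fit over all its groups, since the experiments differ in rounds of RNA amplification, with Benjamini-Hochberg adjustment over 28786 genes. Versions were 3.58.1 of limma, 1.5.0 of statmod and 1.17.8 of data.table. The test was checked on simulated data. Replicate numbers did not pair the samples.

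Members and gene lists were chosen with earlier results of these data known. Every member is named, and some listed genes are not reported here. Of each pathway list, genes called are named, at most the 2 largest rises and 2 largest falls. In some comparisons, but not all, Irf1, Ifngr1 and Ifngr2 are named whether or not they were called. Of marker lists, counts, array means and a few defining markers are given. Markers without overlap between relapsed and residual tumors, and genes called without carcinoma 6, were named after their values were seen. So were the dendritic cell markers other than Itgax that are named between adenomas and carcinomas. H2-Ea is named as the partner of H2-Eb1, and its values were seen first. Likeness was Pearson's r, and the 5 closest genes are named. Alternatives changed the background correction, normalization, probe choice, dim probes, blocks, test and samples. Promoters came from RefSeq tables. The order of the groups in time follows the study's methods.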

Additional observations from a re-analysis of the deposited data

Results flagged for a closer look

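In 49 sets of 1 gene in 1 group, 8 had a sample far from the others of its group by Dixon's criterion, which chance alone meets in about 1 in 20 sets. Of these, 6 were carcinoma replicate 6, which was the highest carcinoma. It stood at 3.37 for Cd74 (next 0.59), 5.93 for H2-Aa (next 3.46), 7.47 for H2-Ab1 (next 4.78), 4.90 for H2-Eb1 (next 1.42), 3.97 for H2-DMa (next 1.43) and 6.16 for H2-DMb1 (next 4.62). The genes were read from 1 array, so these are not separate findings. Its leukocyte and macrophage marker means, 3.15 and 4.58, were also the highest of the carcinomas, and their part was not tested. Relapsed replicate 3 was the highest relapsed tumor for H2-DMb1 (3.60, next 2.93) and H2-Eb1 (0.36, next 0.01).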

How the results depend on the processing

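Of the members' values under other processing, 710 kept their direction and side of the threshold, 34 lost a call, 14 gained one and 33 changed sign, none of the last from a called difference. Of the calls, those of Cd74, H2-Eb1 and H2-DMa from carcinomas to disseminated cells held under all 12 alternatives and with each of 12 samples left out. Slide as a fixed block is not among these 12, since the groups share no slide, so slide and scan day stay untested there. The chemotherapy calls rest on few arrays and the calls from adenomas to carcinomas on normalization between arrays. The cause was not tested in any case.

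From residual to relapsed tumors the number of members called was 1, and 3 without normalization between arrays, with Aquantile or with only the 2 groups fitted, 2 with median centring in place of loess or with dim probes left out, and 0 with slide as a fixed block or the ordinary test. From adenomas to carcinomas it was 4, and 2 with the scanner's processed signals or the deposited ratios, 1 with median centring and 0 without normalization between arrays or with Aquantile. From carcinomas to metastases it was 4, and 2 with processed signals and 1 with only the 2 groups or the ordinary test. From adenomas to metastases it was 2, and 1 without normalization between arrays, with Aquantile or with the mean of a gene's probes.

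Leaving out 1 sample, the counts ran from 0 to 2 from residual to relapsed tumors, 2 to 5 from adenomas to carcinomas, 1 to 2 from adenomas to metastases, 0 to 1 from adenomas to disseminated cells and 1 to 6 from carcinomas to metastases. The count was 4 from carcinomas to disseminated cells and 0 in the other 3 comparisons throughout. Differences that changed sign with 1 sample out ran, between residual and untreated tumors, from -0.18 to 0.57 for H2-Aa, and between relapsed and untreated tumors from -0.27 to 0.14 for H2-DMb1. Between carcinomas and adenomas H2-Ab1 ran from -0.43 to 0.23, and between metastases and adenomas H2-DMa from -0.69 to 0.16. Between disseminated cells and adenomas H2-Aa ran from -0.39 to 0.0397, H2-Eb1 from -0.18 to 0.24, H2-DMa from -0.22 to 0.25 and H2-DMb1 from -0.37 to 0.0058. Between metastases and carcinomas Ciita ran from -0.21 to 0.21, and between metastases and disseminated cells H2-Aa ran from -0.41 to 0.11 and H2-DMa from -0.76 to 0.0889.

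Signs also changed with slide as a fixed block, which gave -0.0111 for Cd74, -0.27 for H2-Aa, -0.10 for H2-Eb1 and -0.29 for Ciita between residual and untreated tumors, and -0.11 for H2-Eb1 between disseminated cells and adenomas, where a random block gave -0.0192. Without normalization between arrays, and equally with Aquantile, H2-Aa was 0.66 and H2-Eb1 0.43 between metastases and adenomas, Ciita 0.0808 between metastases and carcinomas, and H2-Aa 1.01 and H2-DMb1 0.12 between disseminated cells and adenomas. Median centring gave -0.0533 for H2-Ab1 between carcinomas and adenomas, and for H2-Aa 0.42 between metastases and adenomas and 0.65 between disseminated cells and adenomas. The deposited ratios gave -0.0012 for H2-Ab1 between carcinomas and adenomas, 0.0737 for H2-Aa between metastases and adenomas, 0.30 for H2-Aa between disseminated cells and adenomas and 0.0644 for Ciita between metastases and carcinomas. The mean of a gene's probes gave -1.37 for H2-Ab1 between carcinomas and adenomas and 0.23 for H2-Aa between disseminated cells and adenomas. Between metastases and disseminated cells H2-Aa was 0.0104 at offset 0, where H2-Eb1 was -0.48 between disseminated cells and adenomas. With processed signals H2-Aa was 0.24 between metastases and disseminated cells and 0.0117 between metastases and adenomas.

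Replicate numbers did not pair the samples: deviations of same-numbered samples correlated at -0.41 to 0.42 over 14 pairs in the chemotherapy experiment and -0.41 to 0.32 over 31 pairs in the progression experiment. With the replicate block 2 members were called from residual to relapsed tumors, with Cd74 gained (adjusted p = 0.0388), and 1 from disseminated cells to metastases, H2-Ab1 (0.0362). From adenomas to carcinomas 5 were called, with Cd74 gained (0.0368), and from carcinomas to metastases 6, with H2-DMa (0.0441) and H2-DMb1 (0.0358) gained. The block turned the sign of H2-Ab1 between carcinomas and adenomas (-0.34), of H2-Aa between metastases and disseminated cells (0.0891), and between disseminated cells and adenomas of H2-Eb1 (-0.26) and H2-DMa (-0.19).

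Of all genes called from adenomas to carcinomas 35.3% were higher, against 47.9% with processed signals and 46.8% with median centring. From adenomas to disseminated cells 44.3% were higher, against 58.0% without normalization between arrays, 57.9% with Aquantile and 56.7% with the deposited ratios, and from carcinomas to disseminated cells 47.2% against 57.5% without normalization between arrays or with Aquantile. From adenomas to metastases 41.7% were higher, against 53.6% with the deposited ratios, and from carcinomas to metastases 47.0% against 57.5%. The count of all genes called was 29 for residual against untreated tumors, and 14 at offset 0, 16 with processed signals, 11 with the replicate block, 7 by the ordinary test and 1 with slide as a fixed block. From residual to relapsed tumors it was 61, against 34 with slide as a fixed block or by the ordinary test, and from disseminated cells to metastases 2047, against 707 with only the 2 groups. Leaving out 1 sample moved these counts as well: from 29 to 8 without untreated replicate 3, from 61 to 29 without relapsed replicate 1, and from 2047 to between 1366 (without disseminated replicate 3) and 3176 (without disseminated replicate 6). From adenomas to carcinomas the range was 643 to 998 against 952, and from adenomas to disseminated cells 2160 to 3790. From carcinomas to metastases it was 2361 to 3875 against 2902. The shares of all genes set beside the members thus move with single arrays. The lists without carcinoma 6 were added after seeing the data.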
